A study of Mus musculus with 12 samples.

Results

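Clones F5 and G5 are knockout clones of Aebp1 made in the same mouse fibroblast line, and their RNA was compared as that of clones with the same labelled genotype. The comparison took 6 of the 12 libraries of the series: F5 at passages 7, 8 and 9 and G5 at passages 7, 8 and 9, chosen by the clone and passage given in the labels. All 14704 genes with enough counts entered it. The parental line is NIH3T3, an immortalised mouse embryo fibroblast line, labelled wild type and sampled at passages 6, 7 and 8. The other knockout clone, H7, was sampled at passages 7, 8 and 9. Every F5 and G5 library carries the Aebp1 knockout, so the difference between these clones is not a knockout against a wild type. Each clone is a single clone, and the labels leave unsaid whether each passage was a separate culture. P-values therefore measure only the spread between these samples.

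AEBP1, also called ACLP, is a secreted protein that binds collagen and takes part in connective tissue repair. A clone grows from a single cell, and gene expression can differ between clones of a line in patterns that its descendants keep through division. Such differences include genes that are silent in a clone and expressed in its sister, changes in the copy number of a chromosome segment, and small shifts spread over many genes.

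F5 and G5 lay nearer to each other than either lay to H7 or to the parental line. The root-mean-square log2 difference between an F5 and a G5 library had a median of 0.471 (range 0.394 to 0.575), against 0.399 within F5 and 0.462 within G5. It was 0.737 from F5 to H7, 0.769 from G5 to H7, 0.659 from F5 to the parental line and 0.706 from G5 to the parental line. The F5 and G5 libraries held between 22088714 and 31329755 counts and 18304 to 18916 genes with at least 1 count. Of 12 fibroblast markers, 11 stood at 1 CPM (counts per 1000000 counts) or more in these clones and Fap was at 0. Their summed level was 23802 to 25168 CPM in F5 and 22833 to 24584 CPM in G5. Endothelial, adipocyte and skeletal muscle markers summed to at most 1.13 CPM in any F5 or G5 library, epithelial markers to at most 1.63 and blood cell markers to at most 10.8. The cartilage marker Sox9, which fibroblasts can also express, stood at 178 CPM in F5 and 156 in G5. In bulk RNA, fewer cells that express a gene and less RNA per cell cannot be told apart.

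Aebp1, the gene knocked out in both clones, stood at 214, 175 and 190 CPM in F5 at passages 7, 8 and 9, and at 138, 124 and 123 CPM in G5, against 147 in H7 and 553 in the parental line (means of 3). All F5 libraries lay above all G5 libraries and below all parental libraries. The log2 ratio of F5 to G5 was 0.59 (SE 0.12), which missed the threshold of 0.05 in edgeR's quasi-likelihood test on the 12 libraries (adjusted p = 0.0969). With passage as a block on the 6 libraries it was 0.59 (SE 0.04, adjusted p = 5.93e-06), and DESeq2 without a block gave an adjusted p of 0.00135.

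Of the 14704 genes tested, 38 differed between F5 and G5 at an adjusted p under 0.05, or 0.258% of all genes. Higher in F5 were 28 (0.190%) and lower 10 (0.0680%), while 734 genes had an unadjusted p under 0.05. The 28 higher genes were mostly scarce transcripts that stood far apart. Their median log2 difference was 3.01, the same with the 4 genes at 0 in G5 put at their lower bound, 27 differed at least 2-fold, and 27 stood under 10 CPM in F5. The 10 lower genes had a median difference of 1.58 and included abundant genes that differed less. For all 38 the F5 libraries did not overlap the G5 libraries, which held for 1740 (11.8%) of all genes tested. The same test called 14.3% of genes between F5 and the parental line and 13.1% between G5 and the parental line. It called 17.9% between F5 and H7 and 17.4% between G5 and H7. Those comparisons share the parental or the H7 libraries.

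**Figure D1:**
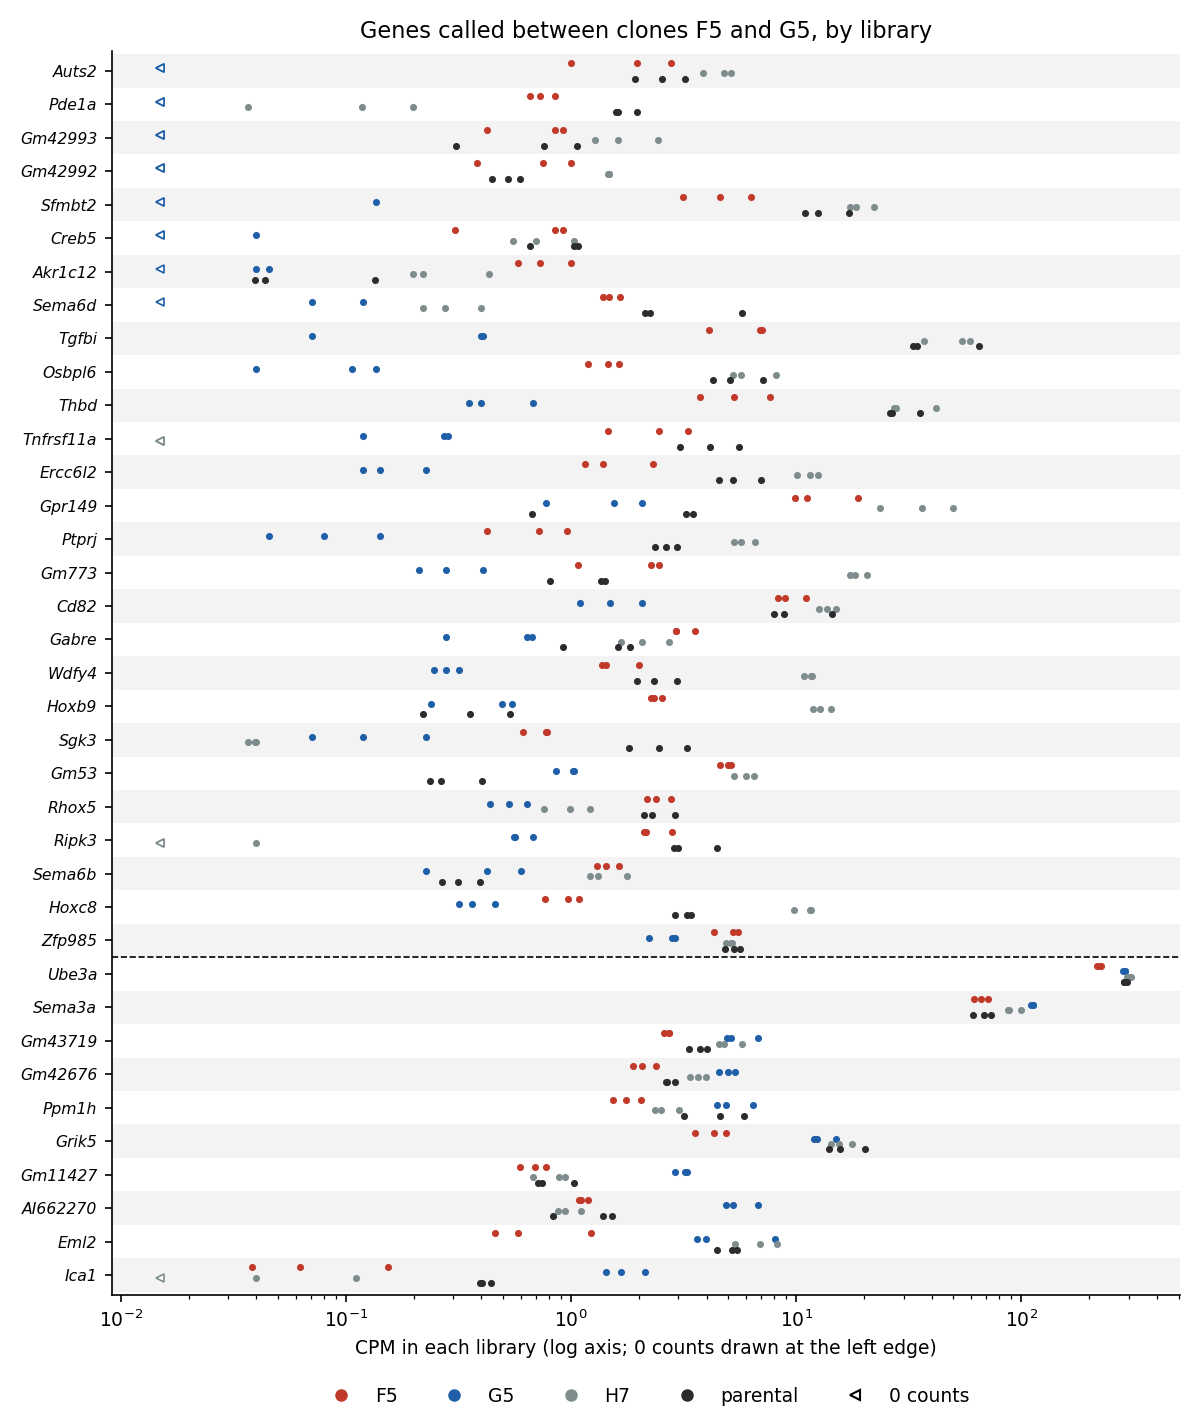
CPM of called genes in every library of F5, G5, H7 and the parental line, on a log axis, with open triangles at the left edge for libraries at 0 counts. Genes above the dashed line were higher in F5 and genes below it lower; the F5 and G5 points of a gene never overlap, and in most rows above the line the parental points lie at or to the right of the F5 points.

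Genes far lower in 1 of the clones carry the comparison, so the promoters of 4 of them are shown, 3 low in G5 and 1 low in F5. Each sequence is the 250 bases before the start of the gene in RefSeq (GRCm38.p6), from 5′ to 3′ on the strand of the gene. Capitals mark CpG dinucleotides, the letters CG, where vertebrate DNA can be methylated. The stretches lie at chr13:56609336-56609585 (plus strand) for Tgfbi, chr2:10370201-10370450 (plus) for Sfmbt2, chr2:76406258-76406507 (plus) for Osbpl6 and chr7:19176171-19176420 (plus) for Eml2.
Tgfbi: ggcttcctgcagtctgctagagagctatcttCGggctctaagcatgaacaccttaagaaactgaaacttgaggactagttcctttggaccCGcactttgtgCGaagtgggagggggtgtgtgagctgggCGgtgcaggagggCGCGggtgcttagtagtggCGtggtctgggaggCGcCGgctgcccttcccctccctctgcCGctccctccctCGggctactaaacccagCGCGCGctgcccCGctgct
Sfmbt2: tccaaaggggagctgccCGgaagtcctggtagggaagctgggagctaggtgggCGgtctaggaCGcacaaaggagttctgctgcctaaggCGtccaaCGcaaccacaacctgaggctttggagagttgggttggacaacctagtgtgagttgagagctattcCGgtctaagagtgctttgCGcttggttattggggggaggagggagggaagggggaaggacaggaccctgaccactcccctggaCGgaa
Osbpl6: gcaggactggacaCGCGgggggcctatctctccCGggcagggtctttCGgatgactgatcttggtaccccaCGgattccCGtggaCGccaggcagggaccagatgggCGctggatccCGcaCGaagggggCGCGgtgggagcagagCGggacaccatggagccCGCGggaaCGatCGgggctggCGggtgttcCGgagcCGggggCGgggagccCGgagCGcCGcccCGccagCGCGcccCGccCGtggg
Eml2: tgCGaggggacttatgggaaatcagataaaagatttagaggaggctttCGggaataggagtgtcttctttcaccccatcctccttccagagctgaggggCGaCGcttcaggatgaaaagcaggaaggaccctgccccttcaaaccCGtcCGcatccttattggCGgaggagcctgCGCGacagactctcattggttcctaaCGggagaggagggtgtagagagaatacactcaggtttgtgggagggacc
They hold 15, 8, 29 and 10 CpGs. Over the 8701 tested genes with such a stretch, matched by symbol and lying within 500 bases of the GENCODE start, the median was 16. At least 15 CpGs were found in 57.7% of those promoters, at least 8 in 83.3%, at least 29 in 12.9% and at least 10 in 77.1%. Of the 28 genes higher in F5, 17 had a stretch in the table, with a median of 14 CpGs, and 9 of the 17 (52.9%) held at least 10. Of the 10 lower genes 5 had a stretch, with a median of 10, and 3 held at least 10. DNA methylation was not measured in these libraries.

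Tgfbi, which encodes a secreted matrix protein that is induced by TGF-beta and binds collagen, was nearly silent in G5. It stood at 4.10, 6.93 and 7.02 CPM in F5 and at 0.0707, 0.408 and 0.399 CPM in G5, against 50.3 in H7 and 44.2 in the parental line. Every F5 library was above every G5 library, and both clones were below every library of the other lines. The log2 difference was 4.41 (SE 0.52, adjusted p = 0.00317). Thbd encodes thrombomodulin, a surface receptor that binds thrombin. It stood at 3.75, 7.62 and 5.32 CPM in F5 and at 0.354, 0.680 and 0.399 CPM in G5, against 32.2 in H7 and 29.5 in the parental line. The order of the lines was that of Tgfbi, and F5 exceeded G5 by 3.57 on the log2 scale (SE 0.37, adjusted p = 0.00183). Cd82, a tetraspanin of the cell surface, stood at 8.89, 11 and 8.29 CPM in F5 and at 1.10, 1.5 and 2.07 CPM in G5. F5 lay within the range of the parental libraries for Cd82 and G5 below it, a log2 difference of 2.60 (SE 0.27, adjusted p = 0.00183).

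The genes low in G5 also included regulators of transcription and chromatin. Sfmbt2, a Polycomb-group gene whose paternal copy is expressed in the placenta, had 401 counts over the F5 libraries and 3 over the G5 libraries. It stood at 3.14, 6.28 and 4.59 CPM in F5, at 0.136 CPM in G5 passage 8 and at 0 in the other G5 libraries. The ratio of F5 to G5 was 120-fold, with a 95% counting interval of 40.8 to 585 (adjusted p = 0.00116). H7 and the parental line stood higher than F5, at 19.3 and 13.5 CPM. Auts2, a nuclear protein of developing neurons that works with a Polycomb complex, had 166 counts in F5 and 0 in every G5 library, which makes it at least 48.2-fold higher in F5 (adjusted p = 0.00281). It stood at 0.996, 2.79 and 1.97 CPM in F5. The floor behind this bound is 3 counts over the summed G5 libraries, and it covers counting error only. The unnamed transcripts Gm42992 and Gm42993, which lie within Auts2 on its strand, were also at 0 in G5 and at least 17.9-fold and 18.4-fold higher in F5. Creb5, a transcription factor that binds cAMP response elements, had 59 counts in F5 and 1 in G5, a ratio of 53 with an interval of 9.16 to 2130. Ercc6l2, a DNA repair ATPase, stood at 1.15, 2.32 and 1.39 CPM in F5 and at 0.141, 0.227 and 0.120 in G5 (log2 fold change 3.32, SE 0.38, adjusted p = 0.00246).

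Of 22 HOX genes tested, which set position along the body axis, 2 were higher in F5 and 0 lower, against 0.190% and 0.0680% of all genes. With the passage block the same 2 of 21 (9.5%) were higher, against 3.77% of all genes. Hoxb9 stood at 2.34, 2.26 and 2.55 CPM in F5 and at 0.495, 0.544 and 0.239 CPM in G5 (log2 fold change 2.47, SE 0.27, adjusted p = 0.00229). Gm53, a long non-coding RNA 6589 bases from Hoxb9 on the same strand, differed the same way, at 5.13, 4.61 and 4.98 CPM against 1.03, 0.861 and 1.04. For both genes H7 lay above F5 and the parental line at or below G5, with Hoxb9 at 13.0 and 0.371 CPM. Hoxc8 stood at 0.766, 0.973 and 1.08 CPM in F5 and at 0.460, 0.363 and 0.319 in G5, a log2 difference of 1.28 (SE 0.21, adjusted p = 0.0326). The homeobox gene Rhox5, X-linked and best known in testis, was higher in F5 as well, at 2.18 to 2.79 CPM against 0.438 to 0.635 (log2 fold change 2.20, SE 0.24, adjusted p = 0.00229).

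Receptors and signalling proteins were also among the genes higher in F5. Gpr149, an orphan G-protein-coupled receptor, stood at 11.2, 9.88 and 18.7 CPM in F5 and at 1.56, 0.771 and 2.07 CPM in G5. H7 lay above both at 36.6 CPM and the parental line near G5 at 2.47 CPM. F5 exceeded G5 by 3.15 on the log2 scale (SE 0.52, adjusted p = 0.0336). Tnfrsf11a, the RANK receptor of osteoclast precursors, stood at 2.45, 3.29 and 1.47 CPM in F5, at 0.283, 0.272 and 0.120 in G5 and at 0 in every H7 library (log2 fold change of F5 over G5 3.4, SE 0.45, adjusted p = 0.0148). Ripk3, a kinase of necroptotic cell death, stood at 2.15, 2.10 and 2.82 CPM in F5 and at 0.566, 0.680 and 0.558 in G5, and 0.0133 CPM in H7 (adjusted p = 0.0148). Both of these genes were thus lower in H7 than in either F5 or G5. Pde1a, a calmodulin-dependent phosphodiesterase, was at 0 in G5 and at least 18.7-fold higher in F5. Ptprj, a receptor tyrosine phosphatase, had log2 fold change 2.86, Gabre, a subunit of GABA-A receptors, 2.56, and Sgk3, a kinase of the PI3K pathway, 2.39.

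Enzymes and lipid-binding proteins also lay among the genes higher in F5. Osbpl6, an oxysterol-binding protein homologue, stood at 1.46, 1.63 and 1.2 CPM in F5 and at 0.106, 0.136 and 0.0399 CPM in G5, against 6.34 in H7 and 5.49 in the parental line. Its log2 difference was 3.88 (SE 0.41, adjusted p = 0.00183). Akr1c12, an aldo-keto reductase, had 66 counts in F5 and 2 in G5, a ratio of 29.7 with an interval of 7.89 to 250. Further genes higher in F5 were Wdfy4, Gm773 and the zinc finger gene Zfp985, with log2 fold changes of 2.51, 2.71 and 0.93.

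The semaphorins, secreted or membrane-bound guidance cues for growing axons, differed in both directions. Of 46 axon guidance genes tested, 2 were higher in F5 and 1 lower, against 0.190% and 0.0680% of all genes. Sema6d stood at 1.65, 1.47 and 1.39 CPM in F5 and at 0.0707, 0 and 0.120 CPM in G5 (log2 fold change 4.41, SE 0.63, adjusted p = 0.0125), and Sema6b at 1.3, 1.63 and 1.43 against 0.424, 0.227 and 0.598 (log2 fold change 1.78, SE 0.31, adjusted p = 0.0482). Sema3a, the more abundant of these, went the other way. It stood at 61.8, 70.9 and 66.3 CPM in F5 and at 110.3, 113 and 113 CPM in G5, a log2 difference of −0.76 (SE 0.08, adjusted p = 0.00229). The parental libraries, at 60.9 to 73.2 CPM, overlapped those of F5, and the H7 mean of 91.7 lay between the clones. Gm42676, within Sema3a on the same strand, and Gm43719, 1470 bases from its end, were also lower in F5, by 1.23 and 1.06 on the log2 scale. Counts of overlapping genes may share reads.

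A group of genes lower in F5 lies on chromosome 7. Eml2, a microtubule-binding protein, stood at 0.460, 1.22 and 0.579 CPM in F5 and at 3.96, 8.07 and 3.63 CPM in G5. F5 over G5 was −2.75 on the log2 scale (SE 0.39, adjusted p = 0.0125), and H7 and the parental line stood near G5 at 6.82 and 5.03 CPM. Grik5, a subunit of kainate glutamate receptors, stood at 3.56, 4.90 and 4.32 CPM in F5 and at 12.4, 15 and 12 CPM in G5 (log2 fold change −1.61, SE 0.17, adjusted p = 0.00183), again with H7 and the parental line near G5. Ube3a, an E3 ubiquitin ligase that is imprinted in neurons, was the most abundant called gene, at 227, 224 and 216 CPM in F5 and 283, 288 and 290 CPM in G5. Its log2 difference was −0.37 (SE 0.05, adjusted p = 0.0105), the smallest of the 38. Elsewhere, Ica1, an autoantigen of pancreatic islets, stood at 0.0383, 0.0628 and 0.154 CPM in F5 and at 1.66, 2.13 and 1.43 in G5, or −4.30 (SE 0.49, adjusted p = 0.00246). Ppm1h, a protein phosphatase, stood at 1.76, 2.04 and 1.54 CPM against 4.45, 6.44 and 4.90 (log2 fold change −1.55, SE 0.24, adjusted p = 0.0179). AI662270 and Gm11427, which overlap on chromosome 11, were lower in F5 by 2.32 and 2.19 on the log2 scale, and G5 alone stood above the other lines for both.

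For 23 of the 28 genes higher in F5, the parental mean lay nearer F5 than G5 on the log2 scale, and for 18 it lay above both clones. The H7 mean also lay nearer F5 for 23 of the 28. For the 10 genes lower in F5, the parental mean lay nearer F5 for 5 and nearer G5 for 5. These counts are a description with no test. Without F5 passages 7, 8 and 9 in turn, 30, 25 and 25 of the 38 calls held, and without G5 passages 7, 8 and 9, 24, 23 and 22. The 20 that held throughout include Tgfbi, Thbd, Cd82, Sfmbt2, Auts2, Osbpl6, Hoxb9, Sema3a, Grik5 and Ica1. The calls of Akr1c12, Creb5, Eml2, Gm42993, Gm43719, Gm773, Gpr149, Hoxc8, Ppm1h, Ptprj, Ripk3, Sema6b, Sema6d, Sgk3, Tnfrsf11a, Ube3a and Zfp985 were among those lost in at least 1 of these 6 fits, with largest adjusted p between 0.0699 and 0.219. All 38 kept their direction in each.

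Libraries of the same passage number deviated together in F5 and G5 at passages 7 and 8, and only weakly at passage 9. Their deviations from the group means correlated at 0.501, 0.489 and 0.153. A fit on the 6 libraries with passage as a block found many more differences. It tested 14179 genes and called 534 higher in F5 (3.77%) and 646 lower (4.56%), or 8.32% of all. Of the 38 genes called without the block 36 were tested, and all 36 were called. Most of the blocked calls were small differences. Over all blocked calls, with those 36 genes counted in, the median log2 difference was 0.27 for the higher and 0.25 for the lower genes. Of the higher and lower genes, 358 and 489 differed by less than 1.3-fold, and 68 and 43 by at least 2-fold. The share called rose with expression level, from 3.4% of 1352 genes under 1 CPM to 5.0% of 3828 at 1 to 10 CPM, 9.0% of 7098 at 10 to 100 CPM and 16.1% of 1898 at 100 CPM or more. The block fit has 2 residual degrees of freedom, and its count depends on the tool: DESeq2 with the same block and libraries called 223 higher and 263 lower, and 483 of the 1180 were shared. Without passage 7, 8 or 9 the edgeR block fit called 364, 676 and 286 higher and 401, 759 and 374 lower. In what follows, paired calls come from this block fit, and the genes named with a paired value did not pass the test on 12 libraries. Outside the HOX, axon guidance, imprinted, matrix glycoprotein and TGF-beta lists, no list held a gene called without the block. List members are often abundant. The median level was 90.3 CPM for hypoxia and glycolysis genes and 103 for contractile genes, against 19.7 over all genes tested. For fibrillar collagen and cross-linking genes it was 66.3 CPM.

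**Figure D2:**
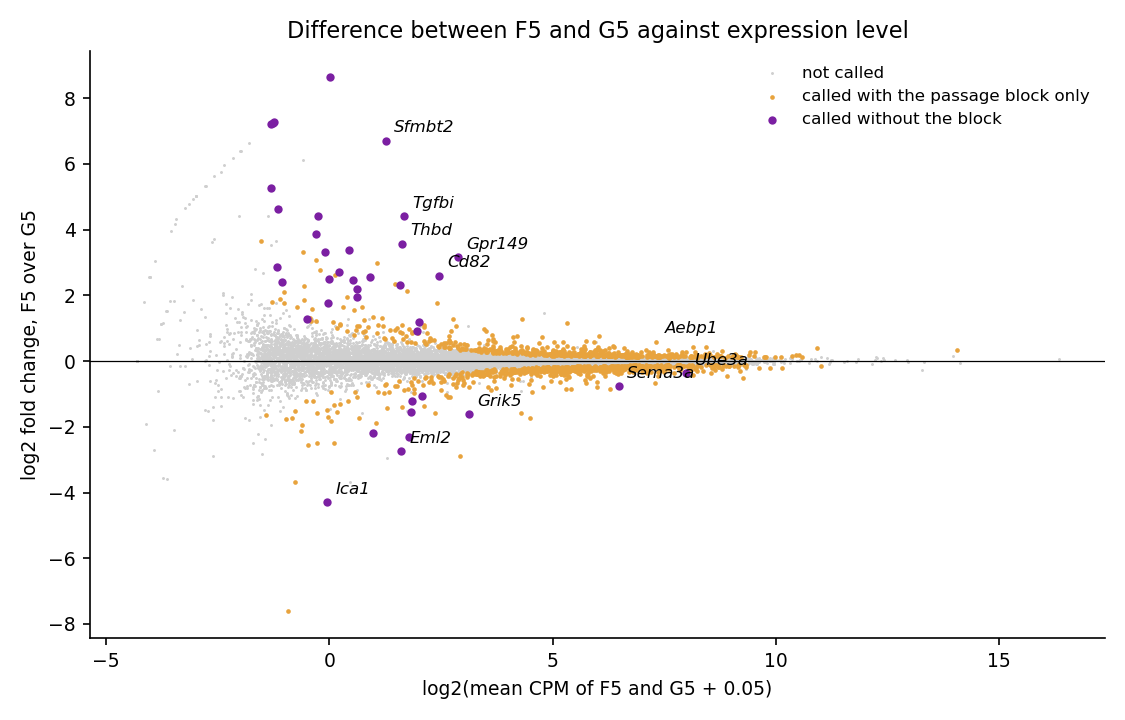
Log2 fold change of F5 over G5 against the mean level of both clones for the 14704 genes tested, each point a gene. Most genes called without the block lie far from 0 and at low levels. Most of those called only with the passage block lie in a band close to 0 that reaches to the most abundant genes, and others lie further out.

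Genes lower in F5 among the paired calls of at least 2-fold included surface and junction proteins. Atp2b4, a calcium pump of the plasma membrane, stood at 7.16, 11.3 and 11.2 CPM in F5 and 23, 32.4 and 33.1 CPM in G5. The paired log2 difference was −1.58 (SE 0.06, adjusted p = 5.89e-07). Bnc1, a zinc finger transcription factor of epithelia and mesothelium, stood at 6.51, 15.9 and 8.87 CPM in F5 and 23.5, 46.4 and 34.6 CPM in G5, or −1.76 (SE 0.08, adjusted p = 9.27e-07). Both clones were highest at passage 8 for Bnc1, and no F5 library reached any G5 library. Cgnl1, a junction protein, stood at 0.613, 3.14 and 1.54 CPM in F5 and 7.14, 20.5 and 12.3 CPM in G5, or −2.95 (SE 0.14, adjusted p = 1.04e-06). Higher in F5 was Pkp1, a desmosome protein, at 6.63, 3.39 and 6.06 CPM against 1.73, 0.771 and 1.12, or 2.15 (SE 0.18, adjusted p = 5.16e-05). Nes, the intermediate filament nestin, and Sorcs2, a sorting receptor, had paired log2 fold changes of 1.11 and 1.33.

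Matrix genes differed in both directions, and the paired calls in the list of fibrillar collagens and cross-linking enzymes were all higher in F5. Of 24 fibrillar collagen and cross-linking genes, none was called without the block. There 2 had an unadjusted p under 0.05, against 734 of all 14704 genes tested. With the block 6 were higher in F5 and 0 lower, and the median log2 difference was 0.109 against 0.003 over all genes. Col3a1, a fibrillar collagen chain, stood at 253, 262 and 271 CPM in F5 and 236, 193 and 219 in G5, a paired log2 difference of 0.28 (SE 0.05, adjusted p = 0.00756). P4ha1 and Loxl3, which hydroxylate and cross-link collagen, had 0.22 and 0.27. Among 13 other collagens, 2 were higher (15.4%) and 3 lower (23.1%) with the block, which rests on few genes. Col12a1, a collagen that binds fibril surfaces, was lower in F5 at 45.3, 36.9 and 41.7 CPM against 62.0, 63.4 and 71.3 (−0.67, SE 0.06, adjusted p = 0.000118).

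Among 37 matrix glycoproteins tested, Tgfbi alone was called without the block. With it 7 of 36 were higher (19.4%) and 10 lower (27.8%), against 3.77% and 4.56% of all genes. Postn, which encodes periostin, stood at 89.7, 31.8 and 45.2 CPM in F5 and 36.1, 14.0 and 24.1 CPM in G5. The clones overlapped, but within each passage F5 was higher, by 1.31, 1.18 and 0.90 on the log2 scale, and the paired adjusted p was 5.93e-06. Thbs1, which encodes thrombospondin 1, went the other way, at 391.8, 680 and 440 CPM in F5 and 628, 942 and 599 in G5 (paired −0.53, SE 0.04, adjusted p = 4.47e-05). Of 12 laminin and basement membrane genes, 3 were higher with the block and 0 lower. Lama2, the laminin alpha chain of muscle basement membrane, stood at 15.4, 42.2 and 27.1 CPM in F5 and 6.61, 17.2 and 11.2 in G5, a paired log2 difference of 1.27 (SE 0.06, adjusted p = 9.52e-07) that was 1.21, 1.29 and 1.26 in the passages. Of 24 proteoglycan genes 5 were higher with the block and 1 lower, among them Gpc4 (0.56) and Dcn (0.57), which encodes decorin. Of 24 proteases and inhibitors 3 were higher and 1 lower, and Serpine2, an inhibitor of thrombin and plasminogen activators, stood at 2.41, 5.65 and 2.78 CPM in F5 and 0.283, 0.680 and 0.438 in G5 (2.93, SE 0.22, adjusted p = 2.92e-05).

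Among adhesion and contractile genes more were lower in F5 than higher with the block, as over all genes (4.56% lower against 3.77% higher). Of 17 integrins 1 was higher (5.9%) and 3 lower (17.6%). Of 14 cadherin and adhesion genes 2 were higher (14.3%) and 3 lower (21.4%), so both adhesion lists rest on few genes. Itga9 stood at 4.90, 3.89 and 3.28 CPM in F5 and 9.30, 8.84 and 7.65 in G5 (paired −1.10, SE 0.11, adjusted p = 0.00024). Cdh11, the cadherin of mesenchymal cells, stood at 36.2, 54.1 and 51.8 CPM against 52.6, 73.1 and 75.7 (−0.50, SE 0.04, adjusted p = 6.77e-05). Contractile and myofibroblast genes had a median level of 103 CPM, and of all genes at 100 CPM or more 9.0% were lower. Of 23 such list members, 0 were higher and 7 lower (30.4%) with the block, with a median log2 difference of −0.102. Fhl1, a LIM-domain protein of muscle, had the largest of these at 1.84, 2.38 and 3.51 CPM against 7.85, 7.21 and 7.89 (−1.59, SE 0.17, adjusted p = 0.000257), and the rest were small: Cald1, Myh10 and Tpm4 had −0.16, −0.18 and −0.16.

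**Figure D3:**
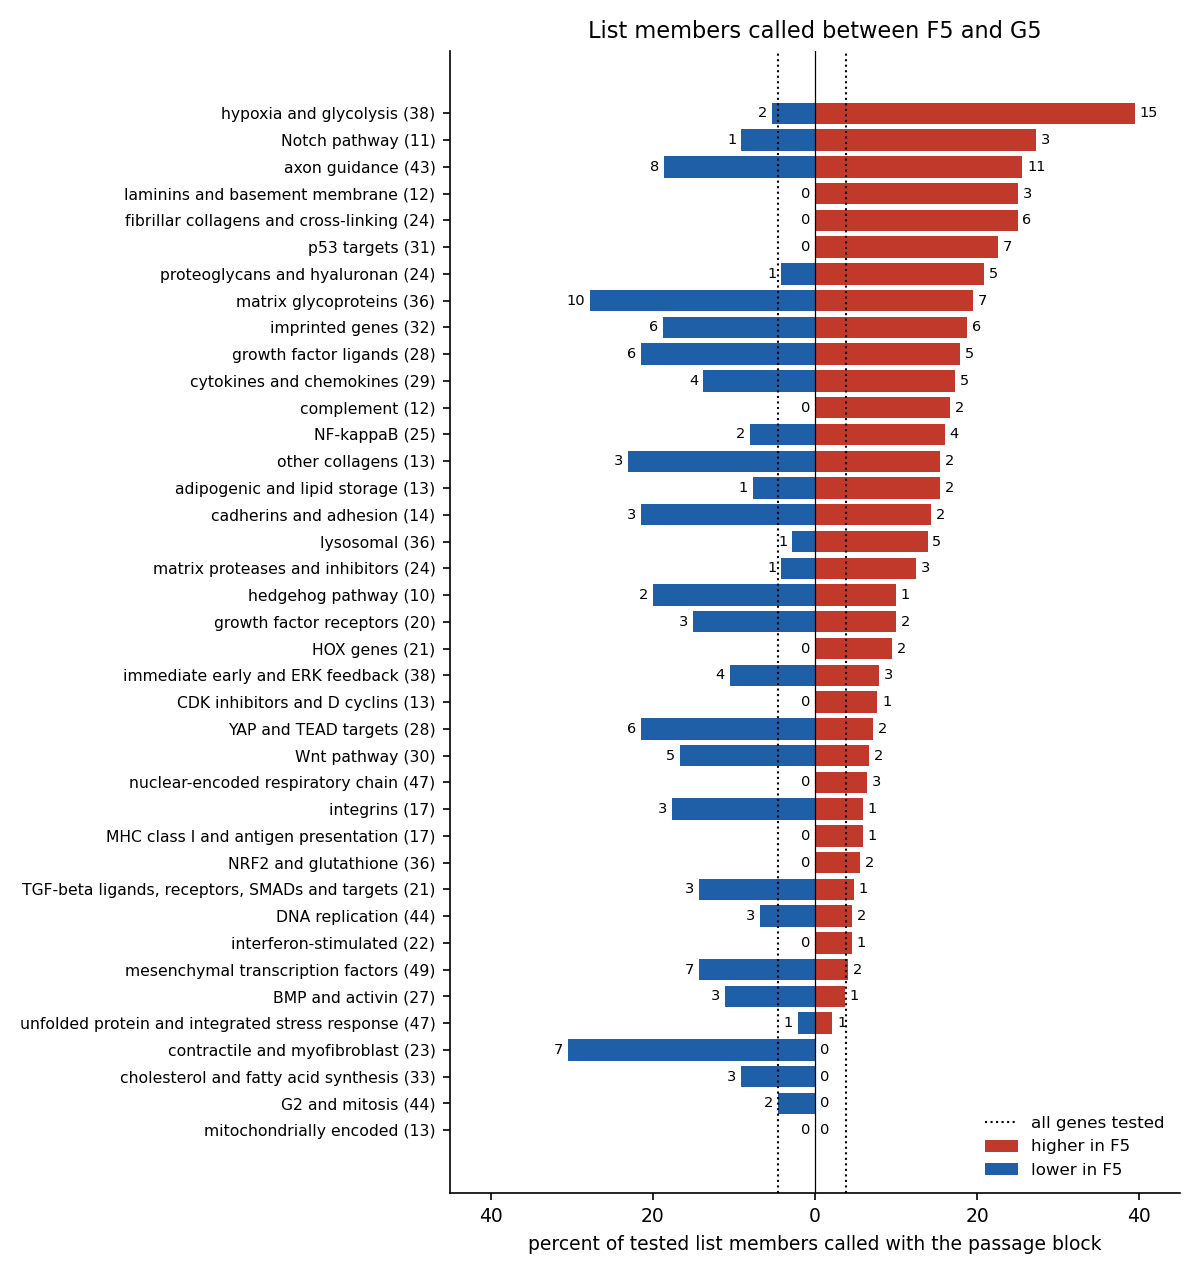
Percent of the tested members of each gene list called with the passage block, to the right for higher and to the left for lower in F5, with the number of genes at each bar and the number tested in parentheses. Dotted lines mark 3.77% and 4.56% of all genes tested; hypoxia and glycolysis has the longest bar to the right with 15 genes, and contractile and myofibroblast genes the longest to the left with 7.

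Signalling pathways held genes of both directions, against 3.77% higher and 4.56% lower of all genes with the block. TGF-beta genes and BMP and activin genes were higher in 4.8% and 3.7%, near the share of all genes. They were lower in 14.3% and 11.1%, which rests on 3 genes in each list. The only higher TGF-beta gene was Tgfbi, which is also counted among the matrix glycoproteins. With the block, 1 TGF-beta gene of 21 was higher and 3 lower, 1 and 3 of 27 BMP and activin genes, 2 and 5 of 30 Wnt genes, 3 and 1 of 11 Notch genes, 1 and 2 of 10 hedgehog genes, and 2 and 6 of 28 YAP and TEAD targets. Sfrp2, a secreted inhibitor of Wnt proteins, stood at 4.9, 4.8 and 3.97 CPM in F5 and 0.636, 1.45 and 0.677 in G5 (paired 2.35, SE 0.23, adjusted p = 0.000177). Rnf43, which removes Wnt receptors from the membrane, was lower at 0.268, 0.439 and 0.193 against 1.41, 2.58 and 1.24 (−2.52, SE 0.28, adjusted p = 0.000313). Of 28 growth factor ligands 5 were higher and 6 lower, and of 20 receptors 2 and 3. Igf1 stood at 2.15, 4.64 and 5.48 CPM in F5 and 4.49, 11.3 and 10.8 CPM in G5, with F5 lower at every passage though the clones overlapped (−1.11, SE 0.11, adjusted p = 0.000232). Its receptor gene Igf1r was also lower, at 288 to 310 CPM against 353 to 382 (−0.30, SE 0.03, adjusted p = 0.000131). Igf1r lies on chromosome 7 before 95 Mb, where the median log2 difference of all tested genes was −0.183. Ptn, the heparin-binding growth factor pleiotrophin, was higher (0.43). Axon guidance genes were called often in both directions with the block, 11 higher and 8 lower of 43 tested, among them Sema7a (1.08) and the netrin gene Ntn1 (2.79).

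Hypoxia and glycolysis genes had the highest share of paired calls higher in F5 among lists of at least 10 genes, 39.5% against 3.77% of all genes. Of 39 tested, 0 passed edgeR's test without the block. There 4 had an unadjusted p under 0.05, against 734 of all 14704 genes tested. With the block 15 of 38 were higher and 2 lower (5.3%), against 4.56% lower of all genes. The list's median log2 difference was 0.101, so the differences were small. Pgk1, phosphoglycerate kinase of glycolysis, stood at 869, 750 and 839 CPM in F5 and 747, 592 and 668 CPM in G5. F5 was higher at each passage, by 0.22, 0.34 and 0.33, although F5 passage 8 and G5 passage 7 lay side by side (paired 0.30, SE 0.03, adjusted p = 0.000308). Ddit4, a stress-induced inhibitor of mTORC1, stood at 78.6, 65.0 and 71.4 CPM against 60.0, 48.9 and 58.1 (0.37, SE 0.04, adjusted p = 0.000396), and Pgam1 had 0.19. Of 47 nuclear respiratory chain genes 3 were higher (6.4%) and 0 lower, and of 13 genes of the mitochondrial genome 0 were called. Of 33 cholesterol and fatty acid genes 0 were higher and 3 lower (9.1%), which rests on few genes.

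Of 31 p53 targets, 7 were higher with the block (22.6%) and 0 lower, against 3.77% and 4.56% of all genes. Their median log2 difference was 0.040. Cdkn1a, the cell cycle inhibitor p21, stood at 151, 118 and 144 CPM in F5 and 131, 92.6 and 118 in G5 (paired 0.28, SE 0.04, adjusted p = 0.000917), and Ephx1, an epoxide hydrolase, at 106 to 116 against 78.8 to 87.4 (0.39, SE 0.05, adjusted p = 0.000894). Proliferation genes were close to the background: 2 of 44 DNA replication genes were higher and 3 lower, 0 and 2 of 44 genes of G2 and mitosis, and 1 and 0 of 13 CDK inhibitors and D cyclins. Of 47 unfolded protein response and integrated stress genes 1 was higher and 1 lower, and of 36 NRF2 and glutathione genes 2 and 0.

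Immune genes were called in both directions, against 3.77% higher and 4.56% lower of all genes with the block. With the block, 5 of 29 cytokine and chemokine genes were higher and 4 lower, 4 and 2 of 25 NF-kappaB genes, 1 and 0 of 22 interferon-stimulated genes, 1 and 0 of 17 antigen presentation genes, and 2 and 0 of 12 complement genes. Ptgs2, the inducible cyclooxygenase, was lower in F5, at 314, 174 and 241 CPM against 443, 228 and 304 (paired −0.41, SE 0.04, adjusted p = 7.91e-05). Of 38 immediate early genes 3 were higher and 4 lower, and the nuclear receptor gene Nr4a1 stood at 22.5, 42.2 and 26.6 CPM against 42.9, 83.4 and 38.6 (−0.83, SE 0.07, adjusted p = 8.37e-05).

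Of the tested mesenchymal transcription factors 14.3% were lower in F5 in the paired fit, against 4.56% of all genes. Of the tested imprinted genes 18.8% were lower and 18.8% higher, against 4.56% and 3.77% of all genes. Ube3a, Peg3 and Nr2f2 lie on chromosome 7 before 95 Mb, a stretch described below, where 31.8% of tested genes were lower. Of 49 mesenchymal factors 2 were higher and 7 lower, including Nr2f2 at 302, 341 and 340 CPM in F5 and 400, 417 and 434 in G5 (paired −0.35, SE 0.03, adjusted p = 9.79e-05) and Prrx1 (−0.21). Of 34 imprinted genes, which are expressed from the copy of 1 parent in some tissues, Sfmbt2 was higher and Ube3a lower without the block, and 6 of 32 were higher and 6 lower with it. Peg3, a paternally expressed zinc finger gene on chromosome 7, stood at 43.6, 44.8 and 51.5 CPM in F5 and 65.5, 83.6 and 92.1 in G5 (−0.78, SE 0.06, adjusted p = 2.61e-05). Plagl1, a paternally expressed growth suppressor, stood at 27.7, 29.7 and 26.9 CPM against 41.3, 49.1 and 40.8 (−0.63, SE 0.05, adjusted p = 2.85e-05).

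By position, the lower genes gathered on chromosome 7. The median log2 difference of its 1127 tested genes was −0.101, and it was −0.096, −0.123 and −0.084 in the pairs of passages 7, 8 and 9. The medians of the other chromosomes lay between −0.046 on X and 0.044 on chromosome 1. Of the 28 genes higher in F5, 7 lie on chromosome 2, which held 7.76% of the genes tested and had a median of −0.004.

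**Figure D4:**
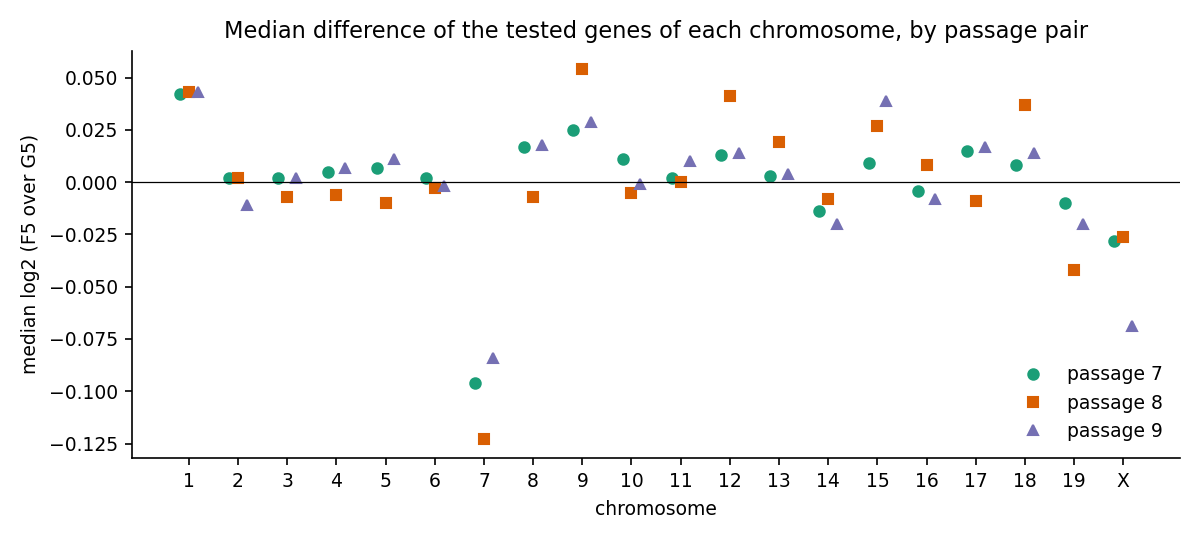
Median log2 difference of the tested genes of each chromosome between F5 and G5, with a point for each passage pair. Chromosome 7 lies below all others at all 3 passages, at −0.096, −0.123 and −0.084.

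The shift took up the part of chromosome 7 before about 95 Mb, a boundary chosen after the values were seen. Single genes do not place its edge exactly. Among the last genes of at least 10 CPM before it, Pcf11, Prcp and Gm45038 had log2 differences of −0.057, −0.077 and 0.058. Nearby, 4632427E13Rik, Ddias and Gm15501 had −0.195, −0.291 and −0.276. The 691 tested genes that start before the boundary had a median of −0.183, which puts F5 at 88.1% of G5. Their medians were −0.174, −0.2 and −0.167 in the passage pairs. The 436 genes after it had a median of 0.016. Before the boundary 63.0% of genes were lower in F5 in all 3 pairs, against 19.5% of all other genes. With the block, 210 of 660 tested genes there (31.8%) were lower in F5 and 4 higher. In windows of 5 Mb, all 19 before the boundary had a negative median in all 3 pairs, and their fitted medians ran from −0.317 to −0.109. These 19 include small windows, the smallest of 4 genes. After the boundary, windows of at least 10 genes ranged from −0.047 to 0.045, and the last window, of 3 genes, had −0.228. On the rest of the genome, 342 windows of at least 15 genes ranged from −0.148 to 0.194, with 3 at or below −0.1 and 6 at or above 0.1. Against the parental line the median of the genes before the boundary was −0.322 in F5 and −0.127 in G5, and against H7 it was −0.263 in F5 and −0.074 in G5. Grik5, Eml2, Ube3a, Bnc1, Peg3, Igf1r and Nr2f2, described above, lie in this stretch, and Eml2, Grik5 and Bnc1 differed by far more than its median. DNA copy number was not measured. Without the genes before the boundary, 28 higher and 7 lower genes remained without the block, and 530 higher and 436 lower with it.

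**Figure D5:**
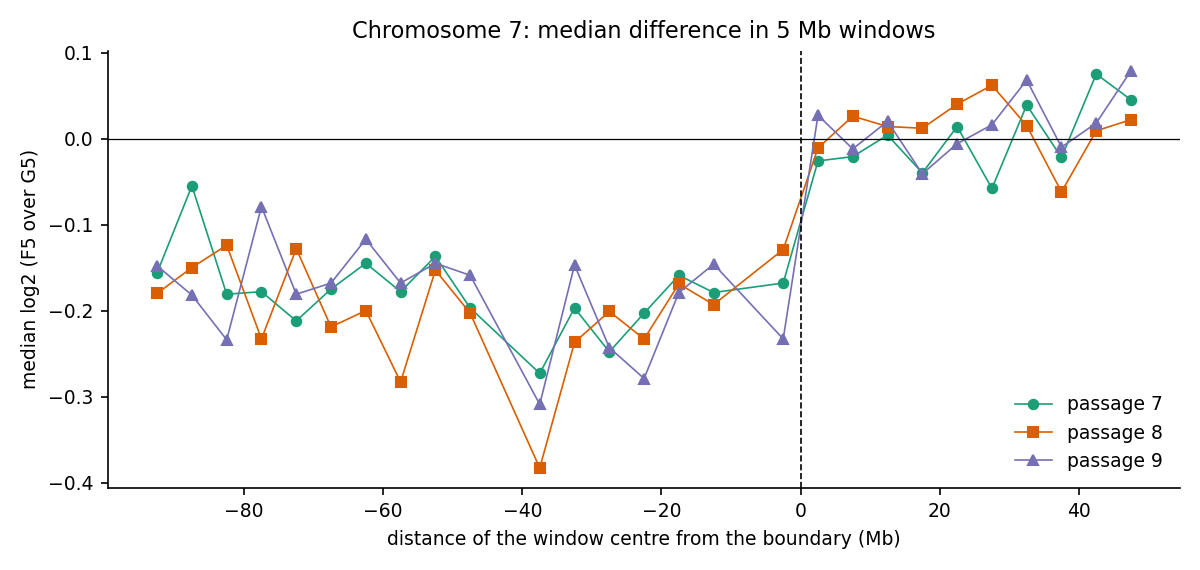
Median log2 difference of F5 over G5 in 5 Mb windows of chromosome 7 with at least 10 tested genes, against the distance of the window centre from the boundary at 95 Mb, for each passage pair. The medians lie below 0 to the left of the dashed line and around 0 to its right at all 3 passages.

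No gene was called for a difference between the clones in how it changed with passage. A test of the difference in slope per passage called 0 of 14704 genes (edgeR, smallest adjusted p = 1), with 47 at an unadjusted p under 0.05. On the 6 libraries alone it called 0 of 14179, with 35 at an unadjusted p under 0.05. With 3 passages per clone and 4 residual degrees of freedom, this test had little power, and large differences in slope also went uncalled. Among these were Nutf2-ps1, at −1.10 per passage on the log2 scale (SE 0.27), and the scarce Gm14117, at −7.09 (SE 1.33). The test could therefore not show that the clones changed alike.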

How the data were processed

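Total RNA of 12 libraries was sequenced after ribosomal RNA depletion, with a stranded kit, per the labels' protocols. The authors deposited a table of expected counts, not normalised, for 48795 genes and the same genes in TPM. GRCm38 is the build in the submitters' processing notes. The aligner, the counter and its use of strand are not given in the sources used. Of the deposited values above 0.5, 86.9% were whole to within 0.01, and all were rounded for the tests. Symbols for 48435 genes came from GENCODE M21. Genes passed edgeR's filterByExpr. EdgeR's quasi-likelihood F-test, with TMM factors, was the main test, on 12 libraries in 4 groups, with Benjamini-Hochberg adjustment over all genes and 8 residual degrees of freedom. The biological coefficient of variation was 15.5%. CPM values use the TMM factors, and intervals and floors (3 counts) cover counting error only. The 6 F5 and G5 libraries were also fitted with passage as a block, where that coefficient was 4.14%. Passage numbers pair the clones by this check: deviations from the group means correlated at 0.501, 0.489 and 0.153 for passages 7, 8 and 9 over 14704 genes, each library best with its own number. Parental passage 7 correlated with the clones' passage 7 at −0.461 and −0.526, so a block by number over 12 libraries does not align it. Scripts were tested on simulated data.

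The genes named are Aebp1, the up to 15 called genes with the largest difference in each direction at 1 CPM or more (predicted genes left out by name), up to 5 called genes at least 1.5-fold apart at higher levels, called list members, and the 4 smallest p of the passage trend. All other called genes, list members and genes of paired calls were named after their values were seen, and a called gene is not reported here. Members, lists and tests were chosen with earlier results of these data known. Alternatives were DESeq2, other size factors, filters, blocks, limma on log2(TPM + 1) or log2(TPM + 0.1), and fits without each library. The software was edgeR 4.0.16, DESeq2 1.42.0 and limma 3.58.1 in R 4.3.3, with Python 3.11.15 for tables.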

Additional observations from a re-analysis of the deposited data

How the results depend on the processing

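All 38 genes kept their direction under every alternative in which they were tested. Over these genes and alternatives, 739 values stayed past the threshold, 189 lost it and 0 changed sign. The alternatives include subtraction of the chromosome median from the log2 fold changes, with the main adjusted p kept. There all 38 stayed past the threshold by construction. The count of genes higher in F5, 28, became 58 with DESeq2, 14 on 6 libraries without a block, 10, 15 and 13 with limma on log2(TPM + 1), log2(TPM + 0.1) and log2(TPM + 1) without a filter, and 14 to 26 without 1 library. The count of lower genes, 10, became 44 with DESeq2, 5 on 6 libraries without a block, and 6 to 9 without 1 library. With a passage block the higher and lower counts were 534 and 646 on 6 libraries, 232 and 297 on the 9 clone libraries and 223 and 263 with DESeq2, and 13 and 8 on 12 libraries; a block by the order of passages gave 44 and 38. Blocked fits without passage 7, 8 and 9 gave 364, 676 and 286 higher and 401, 759 and 374 lower. Without chromosome 7 before the boundary they were 530 and 436, and without the middle passage of every line 17 genes were higher. Of the 1180 blocked calls, 483 were shared with DESeq2, 522 with the block on 9 libraries and 78 with the block by order; the cause was not tested. The blocks on 9 libraries and by order, the blocked fits without a passage or with DESeq2, and the fits without the middle passage or chromosome 7 were chosen after seeing the data.

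Aebp1 passed the threshold with DESeq2 (0.588), with the block on 6 and 9 libraries (0.587 and 0.59), by order (0.58), with DESeq2 and the block (0.59), with the block on 6 libraries without passages 7, 8 and 9 (0.562, 0.632 and 0.566) and, without a block, without the middle passage (0.63, adjusted p = 0.0455), all as log2 fold changes. It missed in every other fit run for it (adjusted p = 0.0504 to 0.488), among them the 6 unblocked fits without 1 library (adjusted p = 0.139 to 0.488), the passage block on 12 libraries (adjusted p = 0.253) and the test against a 1.2-fold minimum (adjusted p = 0.464). On log2(TPM + 1) the chromosome 7 median was −0.127 and that before the boundary −0.203. Of 126 genes taken from the paired fit by rule, 12 changed sign in a fit without the block and without 1 library, which breaks the pairing; none of the 12 is described as a difference above. Scarce genes such as Auts2 rest on few counts, so differences of genes under about 1 CPM were detectable only when large.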

Other observations

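Lysosomal genes were higher in F5 for 5 of 36 tested (13.9%) and lower for 1 (2.8%) with the passage block, against 3.77% and 4.56% of all genes. Of 13 adipogenic and lipid storage genes 2 were higher and 1 lower. Of 8 metallothionein and zinc transport genes 0 were called by edgeR with the block or without it, and 0 had an unadjusted p under 0.05 without it.

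The Y-linked genes Kdm5d, Eif2s3y and Ddx3y had 7, 13 and 20 counts over the F5 libraries and 0 in every G5 library, with edgeR adjusted p of 0.803, 0.333 and 0.351. Gm28539 had 72 counts over the G5 libraries and 0 in F5 (adjusted p = 0.739, or 0.000551 with the block). Gm45589 had 47 counts in F5 and 3 in G5 (adjusted p = 0.215, or 0.00535 with the block). The genes with the smallest p for a passage trend that differed between the clones were Gm14117, Kansl2-ps, Nutf2-ps1 and Gm3636, each with an adjusted p of 1.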
